A study of Mus musculus with 8 samples.

Results

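The 8 genes described here belong to the tumour necrosis factor (TNF) system and were measured in the epidermis of CD1 mice. They are the ligands Tnf, Tnfsf15 (TL1A) and Tnfsf10 (TRAIL), the TNF receptors Tnfrsf1a and Tnfrsf1b, the death receptor Tnfrsf21, the soluble decoy receptor Tnfrsf11b (osteoprotegerin) and the intracellular inhibitor Tnfaip3 (A20). They were taken by symbol from 16902 genes listed in both deposited tables, and all 8 passed the filter on low values that left 14614 genes. The list was drawn up with results of these data known, and its members were selected on their normalised counts and genotype fold changes in these libraries, so those values are given as a description.

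The libraries came from back skin whose epidermis had been lifted off the dermis with dispase. Untreated epidermis was sequenced from mice labelled Ovol1 -/- and from heterozygous Ovol1 +/- controls, and IMQ-treated epidermis from mice labelled Ovol1 -/- and from wild-type Ovol1 +/+ controls. IMQ is imiquimod, an agonist of Toll-like receptor signalling that is applied to mouse skin to provoke psoriasis-like inflammation. Ovol1 encodes a zinc finger transcriptional repressor of epithelial cells. There were 2 libraries in each of 4 groups, 1 from a female and 1 from a male, and the labels state neither ages, nor the IMQ dose, nor how the Ovol1 allele was made. Because the untreated and IMQ controls carry different Ovol1 genotypes, treatment and genotype cannot be told apart in the control animals. The untreated and IMQ fold changes between genotypes thus have different reference genotypes, and their difference cannot be credited to treatment alone.

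Ligands of the TNF family are made mostly as trimers on the cell surface, from which some are cut free, and they bind trimeric receptors. Some receptors carry a death domain and can start cell death, while others recruit TRAF adaptors and switch on the transcription factor NF-kappaB. Decoy receptors bind ligand without passing on a signal, and A20 is a ubiquitin-editing enzyme that is itself induced by NF-kappaB and shuts the pathway down. In skin, TNF made by keratinocytes and immune cells is a central cytokine of psoriasis.

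The regulatory sequence of a pair of the genes frames the range of the data: Tnfsf15, the ligand gene with the largest difference between genotypes, and Tnfaip3, one of the most abundant of the 8 transcripts per kilobase. Both stretches are on the minus strand and come from RefSeq, assembly GRCm38.p6; 7 of the 8 genes matched the promoter table, and Tnfrsf11b did not. The Tnfsf15 stretch is the 196 bases before the annotated gene, chr4:63745114-63745309. The Tnfaip3 stretch is 137 bases between annotated exons and before the RefSeq start, chr10:19015411-19015547. Capitals mark matches to an AP-1 motif and to the NF-kappaB consensus, the latter chosen as a motif after the data were seen.
Tnfsf15: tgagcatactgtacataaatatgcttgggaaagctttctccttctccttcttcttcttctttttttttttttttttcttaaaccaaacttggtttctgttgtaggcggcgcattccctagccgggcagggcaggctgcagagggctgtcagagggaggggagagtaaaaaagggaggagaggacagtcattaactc
Tnfaip3: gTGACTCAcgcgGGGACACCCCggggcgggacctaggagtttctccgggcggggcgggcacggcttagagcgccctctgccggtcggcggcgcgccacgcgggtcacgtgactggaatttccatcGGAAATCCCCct
The AP-1 motif TGANTCA, searched on both strands, was present in 7.81% of all 32851 RefSeq promoter windows. The NF-kappaB consensus was present in 8.46%, and a stricter NF-kappaB form in 0.411%. The core element bound by OVOL proteins, CCGTTA, was in 2.76%. Of the member genes with a window, Tnfaip3 alone held a match. It had 1 to AP-1 and the NF-kappaB consensus at 2 positions, 1 of which reads as a match on both strands. Tnfaip3 had 2 windows and each other matched member 1, so more of its sequence was searched. A match is a description of letters and no match says only that these letters are not in the window.

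The libraries held 28.6 to 43.1 M reads assigned to genes. The 7 keratinocyte markers (such as Krt5 and Krt10) were present in every library and summed to between 21918 and 33490 CPM (reads scaled to a common library size), as an epidermal label requires. Ovol1 itself was higher in the libraries labelled knockout: 27433 and 26601 normalised counts against 16629 and 14582 in untreated controls, and 13457 and 13076 against 7635 and 9556 under IMQ. These are counts over the whole gene. Since the labels do not say which part was deleted, these counts cannot check the genotype, and the group is called labelled knockout throughout. The labels do not say whether the libraries of a group came from separate litters or batches, so tests measure only the spread between these libraries.

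Values below are normalised counts, that is read counts divided by 1 factor per library, in the order female then male. They can be set side by side within untreated or within IMQ libraries but not across, because the tables were scaled separately. Log2 fold changes are of labelled knockout over control on the log2(value + 1) scale, with the standard error (SE) from a limma model of 4 group means over all 8 libraries, and a gene is called where its Benjamini-Hochberg adjusted p is under 0.05.

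**Figure D1:**
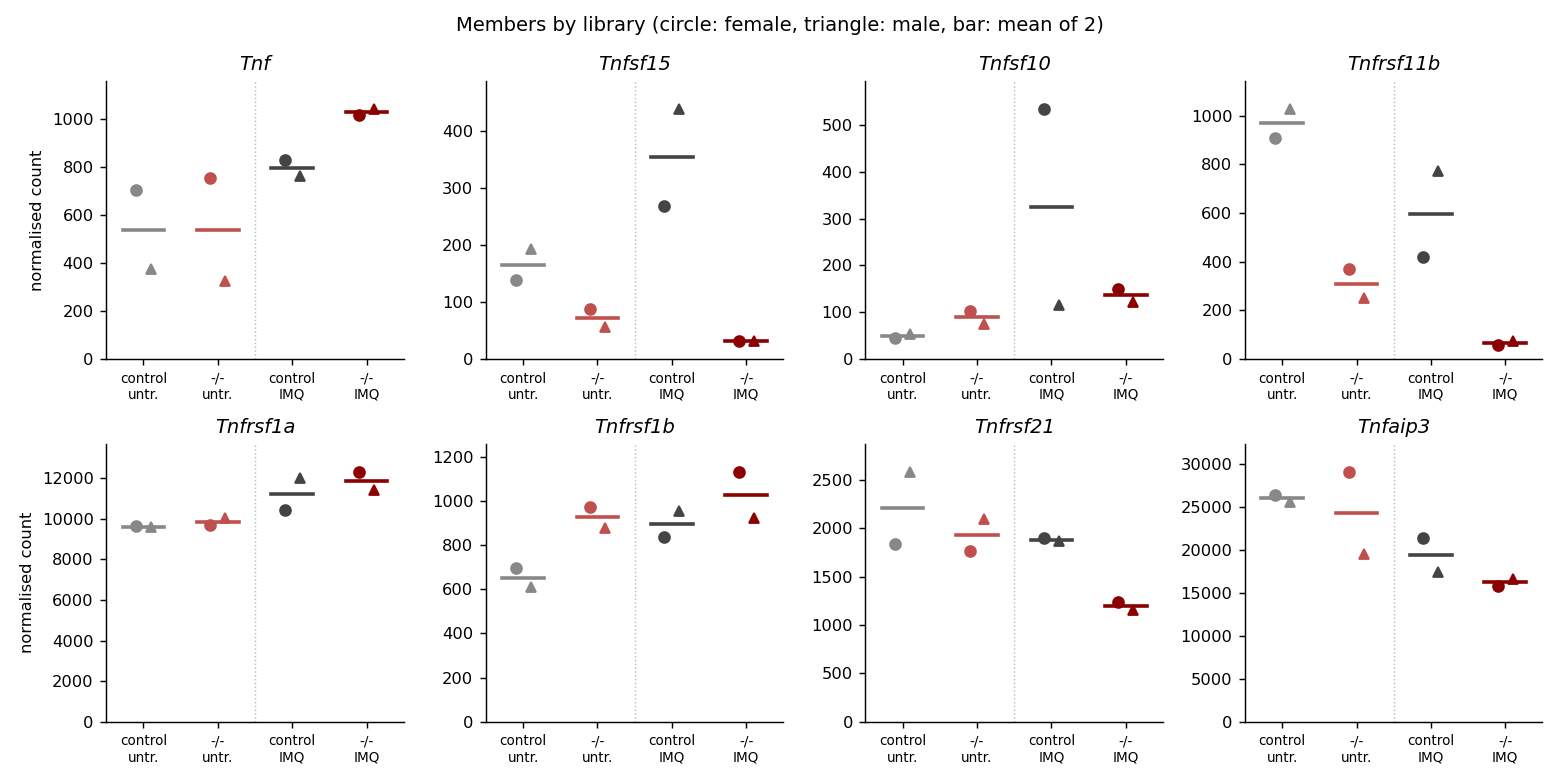
Normalised count (vertical axis, starting at 0) of each of the 8 genes in each library of the 4 groups; circles are females, triangles males and bars the mean of 2, and the dotted line separates tables that were scaled separately. Tnfsf15 was 31.8 and 31.4 in the labelled knockouts under IMQ against 269 and 439.6 in controls, and Tnfrsf11b 57.7 and 73.2 against 420.2 and 772.

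Tnfsf15 encodes TL1A, a ligand of the death receptor family member Tnfrsf25 (DR3) that co-stimulates T cells and innate lymphoid cells. Under IMQ the control libraries held 269 and 439.6 normalised counts, while the labelled knockout libraries held 31.8 and 31.4. The groups did not overlap in either condition, and under IMQ both labelled knockout libraries lay far under both controls. The ratio of the group means was 11.2 and the log2 fold change -3.40 (SE 0.34), -3.04 in the females and -3.77 in the males. These rest on 293 and 385 reads in the controls and 32 and 33 reads in the labelled knockouts, so counting error weighs most on the low pair. In untreated epidermis the counts were 138 and 193 in controls against 88.1 and 56.7, a log2 fold change of -1.20 (SE 0.34). The difference between these log2 fold changes was -2.20 (SE 0.48), with +/+ controls under IMQ and +/- controls untreated.

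Tnf encodes the founding cytokine of the family. Untreated counts were 704 and 376 in controls and 755 and 324 in labelled knockouts, and in each genotype the female was the higher. The untreated log2 fold change was -0.06 (SE 0.41). Under IMQ the counts were 830.4 and 765 in controls and 1018 and 1043 in labelled knockouts, without overlap. The log2 fold change there was 0.37 (SE 0.41), smaller than its own error.

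Tnfsf10 encodes TRAIL, which engages death receptors. Its counts in untreated epidermis were 45.8 and 53.7 in controls and 103 and 75.2 in labelled knockouts, a log2 fold change of 0.81 (SE 0.62). Under IMQ they were 535 and 116 in controls and 150.1 and 122 in labelled knockouts. The female control stood apart from the other 3 IMQ libraries, which lay between 116 and 150.1, and the groups overlapped. The log2 fold change was -0.88 (SE 0.62), -1.83 in the females and 0.06 in the males; it was 0.21 without the female IMQ control and -1.98 without the male one.

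Tnfrsf11b encodes osteoprotegerin, a secreted decoy that binds the ligands RANKL (Tnfsf11) and TRAIL. Its counts were 909.6 and 1027 in untreated controls and 369 and 250.4 in untreated labelled knockouts, a log2 fold change of -1.67 (SE 0.32) and a ratio of means of 3.13. Under IMQ they were 420.2 and 772 in controls against 57.7 and 73.2, with 458 and 676 reads against 58 and 77. Both labelled knockout libraries were below both controls in each condition. The log2 fold change under IMQ was -3.11 (SE 0.32), -2.84 in the females and -3.38 in the males, and the ratio of means was 9.11. The difference between the log2 fold changes was -1.45 (SE 0.45), again over controls of different genotypes.

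Tnfrsf1a encodes TNFR1, the widely expressed death domain receptor that starts most TNF signalling. Its counts were 9634 and 9600.4 in untreated controls and 9700.0 and 10018 in labelled knockouts, and under IMQ 10418 and 12010.3 against 12332 and 11426. The log2 fold changes were 0.04 and 0.09 (SE 0.12 each), both smaller than the error. Tnfrsf1b encodes TNFR2, which has no death domain and signals through TRAF2. Its counts were 695 and 611 in untreated controls and 975 and 876 in labelled knockouts, a log2 fold change of 0.50 (SE 0.16) without overlap. Under IMQ they were 837 and 953 against 1133 and 923, which overlapped, with a log2 fold change of 0.20 (SE 0.16).

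Tnfrsf21 encodes DR6, a death domain receptor that can trigger apoptosis. Its untreated counts were 1836 and 2584 in controls and 1764 and 2095 in labelled knockouts, which overlapped, with a log2 fold change of -0.18 (SE 0.18). Under IMQ they were 1897 and 1863 in controls and 1236 and 1157 in labelled knockouts. These did not overlap, and the spread within each group was small beside the gap between them. The log2 fold change was -0.65 (SE 0.18) and the ratio of means 1.57.

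Tnfaip3 is the A20 gene. Its counts were 26417 and 25589.9 in untreated controls and 29142 and 19492 in labelled knockouts, where the female and male lay on either side of the controls. Under IMQ they were 21391 and 17427 in controls against 15841 and 16637. The log2 fold changes were -0.13 and -0.25 (SE 0.20 each), and under IMQ both labelled knockout libraries were lower than both controls.

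Across the 8 genes, limma called 2 lower under IMQ, Tnfsf15 and Tnfrsf11b, where 0.281% of all genes tested were called lower and 0.438% in either direction. It called 0 in untreated epidermis (0.0% of all genes) and 0 for the difference of the genotype effects (0.0%). Groups did not overlap for 1 gene higher and 4 lower under IMQ, where 26.6% and 26.4% of all genes did so, and for 3 higher and 2 lower when untreated, against 17.4% and 16.4%. Since the members were chosen with these contrasts known, nothing is read from their counts. The calls under IMQ were lost for both genes without any 1 of the 4 untreated libraries or without the female labelled knockout IMQ library, and for Tnfsf15 without the female IMQ control, although each log2 fold change under IMQ stayed at or below -2.67.

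Levels per kilobase of exon let the genes be ordered within a library group. In untreated controls Tnfrsf1a stood at 99.6 ± 0.045 CPM per kb (SD, n = 2) and Tnfaip3 at 96.6 ± 1.9. Tnfrsf21 followed at 14.4 ± 3.5, Tnfrsf11b at 9.23 ± 0.82, Tnf at 8.84 ± 3.8 and Tnfrsf1b at 4.59 ± 0.41, with Tnfsf15 at 1.33 ± 0.32 and Tnfsf10 at 0.254 ± 0.029 last. The libraries of Tnfrsf21, Tnfrsf11b and Tnf next to each other in this order did not all separate: Tnf ranged from 6.17 to 11.5 CPM per kb and covered both values of Tnfrsf11b. In the labelled knockouts under IMQ the order was Tnfrsf1a at 149 ± 6.7, Tnfaip3 at 73.3 ± 3.2, Tnf at 20.5 ± 0.54, Tnfrsf21 at 9.49 ± 0.35, Tnfrsf1b at 8.77 ± 1.2, Tnfsf10 at 0.841 ± 0.12, Tnfrsf11b at 0.758 ± 0.13 and Tnfsf15 at 0.308. Tnfrsf11b thus stood beside the scarcest ligands there, and its libraries overlapped those of Tnfsf10, while in the IMQ controls it was at 6.89 ± 2.8 CPM per kb and overlapped Tnfrsf1b at 7.65 ± 0.65.

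The wider TNF superfamily list held 47 symbols, 18 ligands and 29 receptors and receptor adaptors, of which 45 were in the tables and 41 tested. The ligands Tnfsf4, Cd40lg and Tnfsf14 and the receptor Tnfrsf8 had between 0 and 25 reads per library and fell under the filter. By limma 2 of the 41 fell in the labelled knockouts under IMQ (0.281% of all genes did), both of them members, and 0 rose (0.157% of all genes did). Other settings also called Tnfrsf9 higher, as given below for that gene. Of the 41, 19 log2 fold changes were positive and 22 negative, with a median of -0.04 beside -0.01 over all genes. Among the 14 ligands 6 were positive and 8 negative (median -0.29), and among the 27 receptors 13 and 14 (median -0.02). In untreated epidermis 25 were positive and 16 negative, with a median of 0.04 beside 0.00 for all genes.

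By limma 0 of the 41 were called in untreated epidermis, with 5 at an unadjusted p under 0.05 (12.2%, against 4.46% of all genes); edgeR also called 0 and DESeq2 called 1, Tnfrsf11b. For the difference of the genotype effects limma called 0, with 7 at an unadjusted p under 0.05 (17.1%, against 10.1% of all genes), edgeR 0 and DESeq2 1, Tnfsf15. Under IMQ 6 had an unadjusted p under 0.05 (14.6%, against 22.0% of all genes). The untreated 5 included the members Tnfsf15, Tnfrsf11b and Tnfrsf1b, and the 7 for the difference included Tnfsf15 and Tnfrsf11b. Members were selected on their genotype fold changes in these libraries, so nothing is read from these shares or from the calls. The shares of all genes that edgeR and DESeq2 called are not given here. The control genotypes also differ between the conditions set against each other in that difference.

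**Figure D2:**
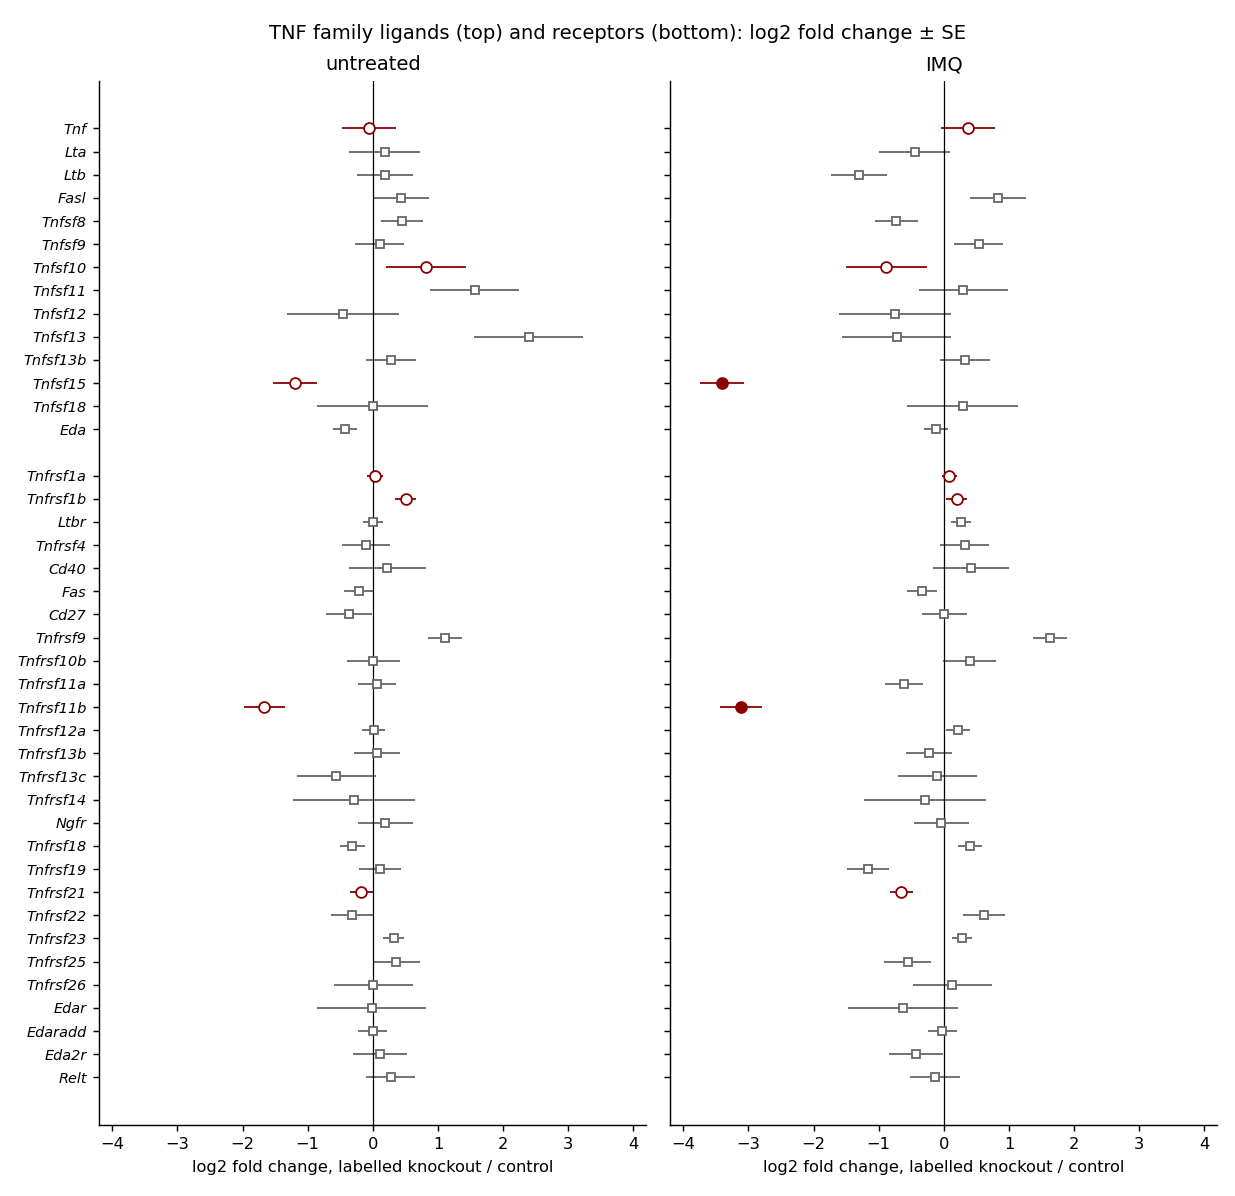
Log2 fold change of labelled knockout over control with its SE (horizontal axis) for the 41 tested TNF family genes, ligands above and receptors below, untreated on the left and IMQ on the right; red circles are the members described here, grey squares the others, and filled symbols were called. Tnfsf15 and Tnfrsf11b are the filled points, at -3.40 and -3.11 under IMQ.

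Among the other family genes, Tnfrsf9 lay nearest to a call. It encodes 4-1BB, a co-stimulatory receptor of activated T cells. Its counts under IMQ were 404 and 488 in controls against 1589 and 1194 in labelled knockouts, with no overlap. The fold change was 1.63 on the log2 scale (SE 0.26, limma adjusted p = 0.0553). With sex as a replicate block it passed (limma adjusted p = 0.0285), which raised the count of family genes called under IMQ from 2 to 3. It also passed with limma on log2 CPM (0.0415), edgeR (0.0493), edgeR with the sex block (0.0237) and DESeq2 (3.85e-08). It did not pass with plain moderation (0.122) or with each table fitted alone (0.149), and without the female IMQ control or the female labelled knockout IMQ library the adjusted p was 0.174 and 0.290. In untreated epidermis its counts were 39.7 and 30.1 against 89.1 and 63.9, or 1.10 on the log2 scale (SE 0.26, limma adjusted p = 0.479). The T cell markers summed to 56.3 and 49.8 CPM in IMQ controls and 44.1 and 48.9 in labelled knockouts, and their part in the Tnfrsf9 value was not tested.

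Tnfrsf19 (TROY), a receptor expressed in hair follicles, had IMQ counts of 3017 and 1673 in controls against 869 and 1159. Its log2 fold change was -1.16 (SE 0.32, limma adjusted p = 0.118). The hair follicle markers summed to 1579 and 1256 CPM in those controls against 899.5 and 1099, and their part in this value was not tested. Ltb, which encodes lymphotoxin beta, a membrane partner of lymphotoxin alpha, was counted at 48.6 and 30.8 in IMQ controls against 15.9 and 14.3, or -1.31 on the log2 scale (SE 0.43, limma adjusted p = 0.154) from 15 to 53 reads. Tnfsf13 (APRIL), a B cell survival factor, was higher in untreated labelled knockouts by 2.39 on the log2 scale (SE 0.84, limma adjusted p = 0.950) from 2 and 4 reads in controls against 24 and 14.

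The partners of the pair of genes that fell did not pass the test; they are named for their binding and were chosen after their values were seen. Tnfsf11, the RANKL gene, had between 6 and 47 reads per library and a value under IMQ of 0.30 on the log2 fold change scale (SE 0.68, limma adjusted p = 0.832). Tnfrsf11a, the RANK gene, was counted at 164 and 86.8 in IMQ controls against 82.5 and 73.2, or -0.61 on the log2 scale (SE 0.29, limma adjusted p = 0.264). Tnfrsf25, the receptor of TL1A, was at 79.8 and 73.1 against 73.6 and 36.1, or -0.56 on the log2 scale (SE 0.36, limma adjusted p = 0.394).

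Family genes also lie close together on the genome. Tnf is on chr17:35199381-35202007, between Ltb at chr17:35194439-35196320 and Lta at chr17:35203165-35205351. Lta, the lymphotoxin alpha gene, had 8 to 23 reads per library and a value under IMQ of -0.45 on the log2 fold change scale (SE 0.54, limma adjusted p = 0.660). Tnfsf15 is on chr4:63727084-63745113, and the nearest tested protein-coding genes were Tnfsf8 (the CD30 ligand), 86.2 kb away, and Tmem268, 140.7 kb away on the other side. Under IMQ their log2 fold changes were -0.73 (SE 0.33, limma adjusted p = 0.245) and -0.38 (SE 0.27, limma adjusted p = 0.440), beside -3.40 for Tnfsf15. Tnfrsf11b is on chr15:54250619-54278484, between Mal2 and Samd12, whose log2 fold changes under IMQ were 0.29 (SE 0.18, limma adjusted p = 0.371) and 0.55 (SE 0.48, limma adjusted p = 0.530). None of these neighbours was called in either direction, where 0.438% of all genes were called under IMQ. Under IMQ the groups did not overlap for Tnfsf8, lower in labelled knockouts, and for Mal2, higher in them. Of all genes, 26.4% and 26.6% did so. The other members lie on chr3:27317028-27342427 (Tnfsf10), chr6:125349362-125362484 (Tnfrsf1a), chr4:145213463-145246870 (Tnfrsf1b), chr17:43016555-43089189 (Tnfrsf21) and chr10:19000910-19015657 (Tnfaip3), in GRCm38 (mm10).

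Downstream of the receptors, limma called 0 of 31 genes of receptor-proximal signalling and cell death under IMQ. It also called 0 of 24 NF-kappaB targets that TNF induces and 0 of 9 genes of TNF shedding and mRNA decay. In untreated epidermis it called 0 of each. Over all genes it called 0.438% under IMQ and 0.0% untreated, so 0 in lists of these sizes is near those shares. Of the signalling genes 16 were positive and 15 negative (median 0.08), of the NF-kappaB targets 12 and 12 (median -0.00) and of the shedding and decay genes 5 and 4 (median 0.07), beside -0.01 over all genes. At an unadjusted p under 0.05 there were 1 signalling gene, 9 targets (37.5%) and 3 shedding and decay genes, where 22.0% of all genes had such a p.

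The single signalling gene was Ripk3, the kinase that drives necroptosis, with 531 and 944 normalised counts in IMQ controls against 1673 and 1239, or 1.02 on the log2 scale (SE 0.32, limma adjusted p = 0.140). The NF-kappaB targets lay on both sides of 0: 4 of the 9 were higher and 5 lower. Cxcl2, a neutrophil-attracting chemokine, was at 2482 and 1609 against 7983 and 4255 (log2 fold change 1.54, SE 0.38, limma adjusted p = 0.0996). Csf2, the GM-CSF gene, was at 155 and 273 against 884 and 1291 (2.37, SE 0.96, limma adjusted p = 0.211). Cxcl10, an interferon-induced chemokine, was at 2693 and 1303 against 932 and 358 (-1.70, SE 0.50, limma adjusted p = 0.129). Vcam1, an adhesion molecule of activated endothelium, was at 140.4 and 26.3 against 13.9 and 15.2 (-1.997, SE 0.71, limma adjusted p = 0.171), so that 1 control library carried most of it.

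Adam17 encodes the protease that cuts TNF and its receptors from the cell surface. Its IMQ counts were 2506 and 2513 in controls and 3617 and 3598 in labelled knockouts, which is a narrow spread within each pair. The log2 fold change was 0.52 (SE 0.11, limma adjusted p = 0.0818), beside 0.09 when untreated. Adam10, a related protease, was 0.30 (SE 0.12, limma adjusted p = 0.213). Frmd8, which encodes a partner that stabilises the iRhom and ADAM17 complex, was -0.58 (SE 0.17, limma adjusted p = 0.123).

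**Figure D3:**
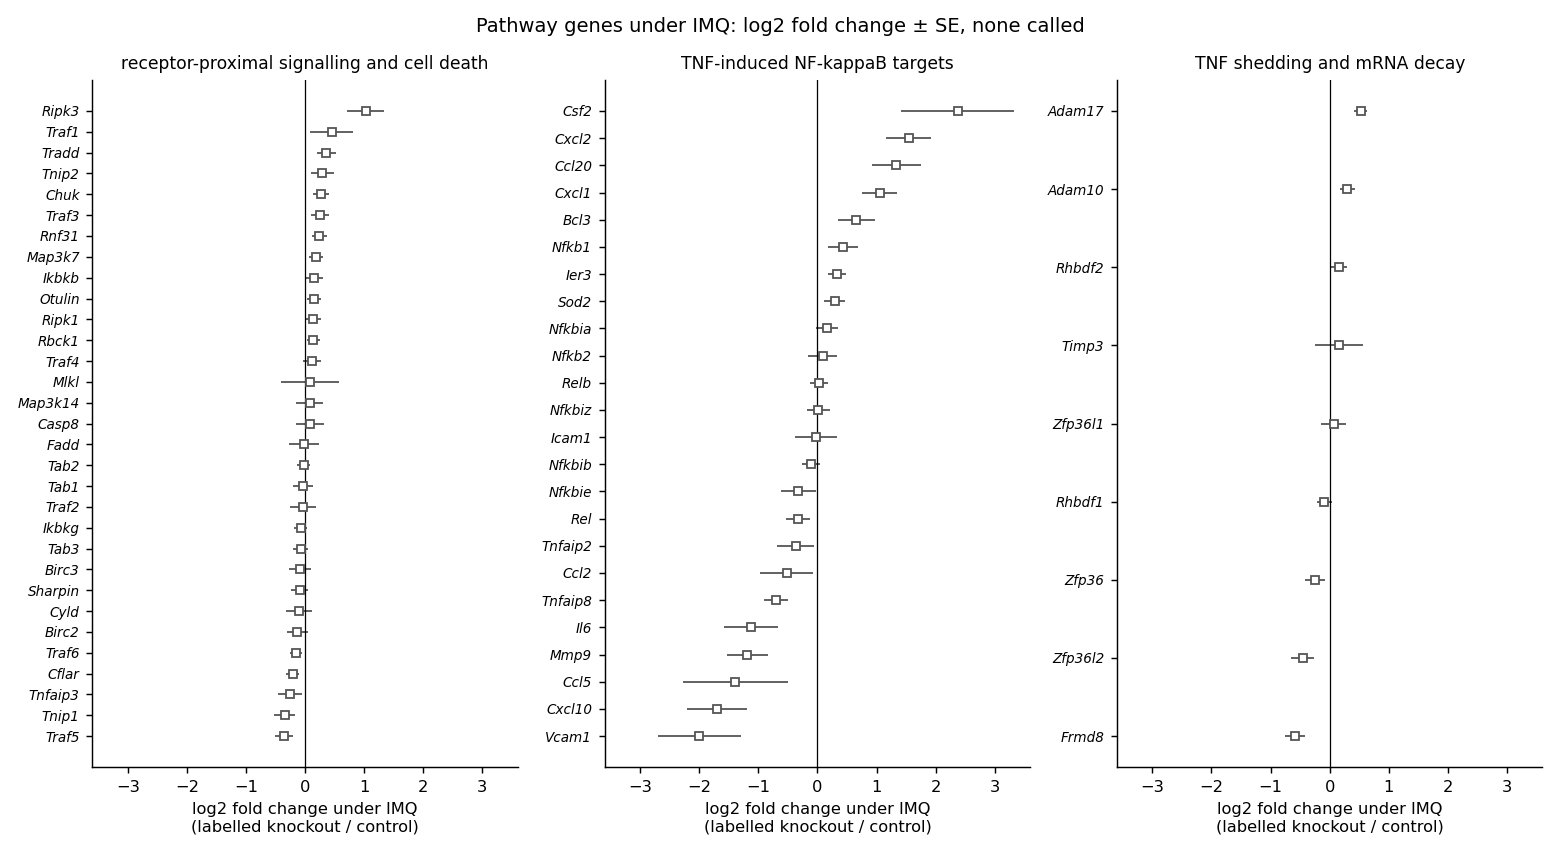
Log2 fold change of labelled knockout over control under IMQ with its SE (horizontal axis) for the tested genes of the 3 pathway lists, each sorted by value. No gene was called, where 0.438% of all genes were, and the NF-kappaB targets run from -1.997 (Vcam1) to 2.37 (Csf2).

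IMQ epidermis was set against untreated epidermis within the labelled knockouts and within the controls, as CPM of the recovered reads. The ratios had 0.5 added to each CPM, with no test. The controls were +/- untreated and +/+ under IMQ, so their values mix treatment with genotype. Tnf went from 14.2 to 33.6 CPM in the labelled knockouts, a 2.31-fold higher level without overlap, and from 14.5 to 26.0 CPM in the controls (log2 ratio 0.82). Tnfsf15 was 2.43-fold higher in IMQ controls (4.45 to 11.5 CPM), and in the labelled knockouts it was lower, 1.91 to 1.03 CPM (log2 ratio -0.66). Tnfrsf11b was 3.29-fold lower in labelled knockouts (8.17 to 2.13 CPM), with a log2 ratio of -0.41 in controls. Tnfsf10 was 6.08-fold higher in controls, carried by the female, and had a log2 ratio of 0.79 in labelled knockouts.

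The remaining 4 genes did not reach 2-fold in labelled knockouts or in controls. Their log2 ratios were 0.57 in labelled knockouts and 0.50 in controls for Tnfrsf1a, 0.45 and 0.72 for Tnfrsf1b, and -0.38 and 0.05 for Tnfrsf21, and for Tnfaip3 they were -0.28 and -0.14. At least 2-fold without overlap, 1 of the 8 genes was higher and 1 lower in labelled knockouts, where 11.7% and 12.8% of all genes were, and 2 were higher and 0 lower in controls, where 7.75% and 6.91% of all genes were. Leaving out the male untreated labelled knockout took Tnf out of that count, and leaving out the male IMQ control took out Tnfsf15.

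**Figure D4:**
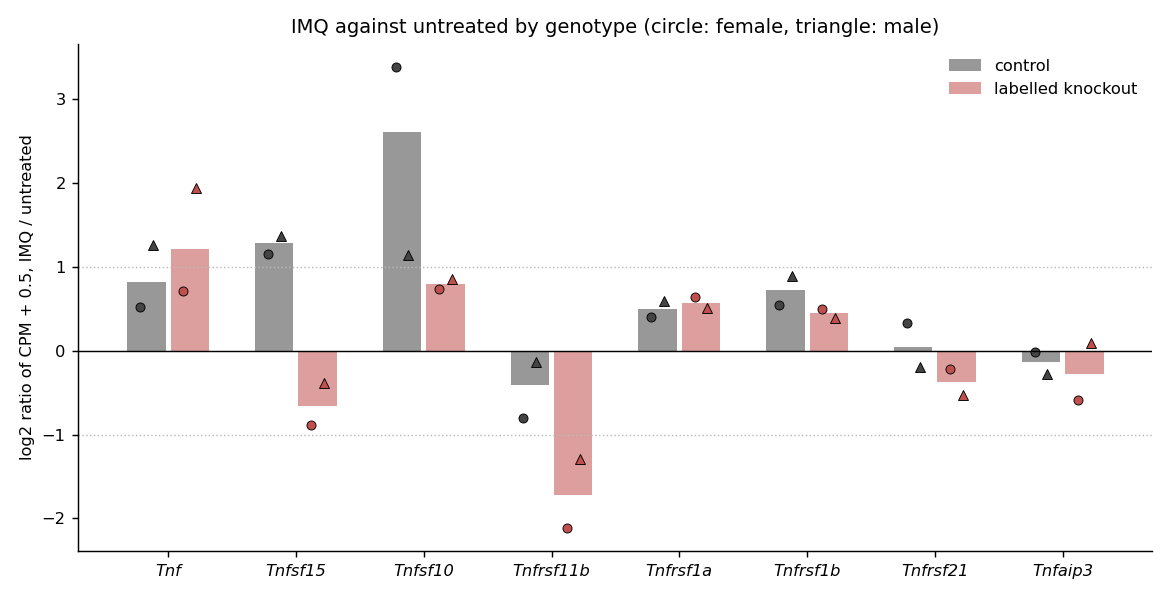
Log2 ratio of CPM plus 0.5, IMQ over untreated (vertical axis), for the 8 genes in controls (grey) and labelled knockouts (red); bars use the group means, points the same-sex pairs, and dotted lines mark 2-fold. Tnfsf15 lies above 0 in the controls and below 0 in the labelled knockouts, at 1.28 and -0.66.

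In the family of 41, 7 genes were at least 2-fold higher and 6 lower in IMQ labelled knockouts, and 4 higher and 2 lower in IMQ controls. Over all genes the shares were 11.7% and 12.8% in labelled knockouts and 7.75% and 6.91% in controls. These genes were named after their values were seen. Tnfrsf9 was 18.2-fold higher in labelled knockouts (2.02 to 45.3 CPM) and 10.5-fold in controls (0.94 to 14.5 CPM). Cd40, a co-stimulatory receptor of antigen-presenting cells, was past 2-fold higher in both labelled knockouts and controls. Tnfrsf11a (RANK) and Edar, the ectodysplasin receptor of hair and gland development, were past 2-fold lower in both. Of the 24 NF-kappaB targets 8 were at least 2-fold higher in labelled knockouts (11.7% of all genes) and 8 in controls (7.75% of all genes). Cxcl1, Cxcl2, Cxcl10, Ccl2, Ccl20, Csf2 and Bcl3 were among them in both. In labelled knockouts 3 targets were at least 2-fold lower (Il6, Tnfaip8 and Mmp9; 12.8% of all genes), and in controls 0 were (6.91% of all genes).

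Over the 8 libraries, the genes whose log2 CPM followed that of Tnfsf15 most closely were Gak (Pearson r 0.976), Ppp3ca (0.967) and Krtap3-3 (0.958), among 13595 genes compared. For Tnfrsf11b they were Olfm2 (0.974), Usp54 (0.966) and Zdhhc8 (0.965). For Tnf they were Tbxas1 (0.978), Fam162a (0.974) and Cntfr (0.972). Among pairs of members the highest r were 0.857 for Tnfrsf1a and Tnfrsf1b, 0.828 for Tnfsf15 and Tnfrsf11b and 0.819 for Tnfrsf11b and Tnfrsf21. Next came Tnf and Tnfrsf1a (0.790), Tnfsf15 and Tnfrsf21 (0.784) and Tnf and Tnfrsf1b (0.764). The lowest was -0.674, for Tnfrsf11b and Tnfrsf1b. The points share 4 groups and are not independent, so these are descriptions.

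Markers of other cell types also differed between the libraries, and none was called. Of all genes, 0.438% were called under IMQ and 0.0% untreated. All 5 endothelial markers were lower in the labelled knockouts under IMQ, with summed levels of 17.8 and 2.6 CPM in controls and 1.5 and 2.1 in labelled knockouts. The log2 fold change of Tnfsf15 under IMQ was -3.04 in the female pair, with endothelial sums of 17.8 against 1.5 CPM. In the male pair it was -3.77, with endothelial sums of 2.6 against 2.1 CPM. All 7 macrophage markers were lower, at 212 and 136 CPM against 104 and 131. All 8 dermal fibroblast markers were lower in both conditions, ranging from 255 to 2593 CPM in IMQ controls and from 77.3 to 1656 in labelled knockouts. In untreated epidermis the log2 fold change of Tnfrsf11b was -1.30 in the female pair, with fibroblast sums of 150.0 CPM in the control and 73.1 in the labelled knockout, and -2.03 in the male pair, with 478 and 510.3. Under IMQ it was -2.84 in the female pair, with fibroblast sums of 255 CPM in the control and 77.3 in the labelled knockout. In the male IMQ pair it was -3.38, with 2593 and 1656 CPM. Hair follicle markers were lower in labelled knockouts for 5 of 5 genes untreated (4545 and 4943 against 3571 and 3929 CPM) and for 4 of 5 under IMQ. The neutrophil markers summed to more in the labelled knockouts under IMQ, 116 and 41.2 CPM against 19.6 and 36.5, with Cxcr2 higher and Csf3r lower of the 2 tested. Nearly all of these sums was Cxcr2 alone, at 115 and 40.8 CPM against 19.1 and 35.6. All 5 sebocyte markers were higher in untreated labelled knockouts, with sums of 63.0 and 140.4 CPM in controls against 155 and 196. In the female IMQ control, where Tnfsf10 was at 535, the endothelial, macrophage (212 CPM), melanocyte (80.0 CPM) and Langerhans and dendritic cell markers (4228 CPM) were at their highest. Of the marker genes in the tables, the neutrophil genes Csf3r, Mmp8 and Retnlg were at 0 in at least 1 library. The part of these cell types in the values of the 8 genes was not tested, and in bulk epidermis fewer cells of a type and less RNA per cell cannot be told apart.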

How the data were processed

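RNA from dispase-separated mouse epidermis was sequenced in 8 libraries as stranded polyadenylated libraries, per the labels' protocols. The deposited values are a signal: each library's read counts over its own size factor, with the untreated and the IMQ libraries in separate tables that do not share a scaling. The submitters' processing notes name STAR 2.5.2a, Trimmomatic 0.35, mm10, R 3.6.1 and DESeq2 1.24.0; the read counter is not given in the sources used here. Values were whole multiples of 1 step within 0.001 read, which returned whole reads.

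Genotype effects were fitted with limma 3.58.1 (R 4.3.3) on log2(value + 1), with trend and robust moderation, over 14614 genes with a mean of at least 10 in either table. The model had 4 group means and 4 residual degrees of freedom. P-values were adjusted by Benjamini-Hochberg, with a threshold of 0.05. Alternatives were other pseudocounts, filters and scalings, moderation without trend, a fit within each table, a block for sex, edgeR 4.0.16 and DESeq2 1.42.0 on the reads, and each library left out. CPM used TMM factors. Replicate numbers follow sex, per the labels. Libraries of 1 sex deviated together: correlations across genes were 0.145 to 0.463 over the 6 pairs of groups, and 0.0744 to 0.394 with X and Y genes left out. Positions are from a GENCODE annotation of GRCm38.

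The members and gene lists were chosen with earlier results of these data known. Named were the 8 members, list genes that were called or, up to 4 per list, had an unadjusted p under 0.05 with the largest changes, the 3 genes most alike to Tnfsf15, Tnfrsf11b and Tnf, and the nearest tested genes. Python 3.11.15, numpy 2.4.6, pandas 2.3.3 and matplotlib 3.10.9 were used, and the fit was tested on simulated data. For the IMQ contrast it recovered 28% of 2-fold and 69% of 4-fold changes, with 13 false among 110 calls. For the untreated contrast it recovered 27% and 72%, with 6 false among 105 calls. A gene that was not called may therefore still differ.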

Additional observations from a re-analysis of the deposited data

How the results depend on the processing

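The count of TNF family genes called under IMQ, 2 by limma, was 0 with plain moderation and 0 with each table fitted alone. It was 3 with edgeR and 5 with DESeq2 (Tnfsf15, Tnfrsf11b, Tnfrsf9, Tnfrsf19 and Tnfrsf21). It ranged from 0 to 2 when 1 library was left out; the lone library of a group is then assumed to vary like the others. With sex as a replicate block the counts were 0 untreated, 3 under IMQ and 0 for the difference. DESeq2 called 1 gene untreated and 1 for the difference, against 0 by limma. The share of all genes called under IMQ was 0.438% by limma. It is not given here for the other settings, so nothing about the family is read from these counts. At least 2-fold apart between IMQ and untreated were 2 members in labelled knockouts and 2 in controls. Leaving out 1 library gave 1 to 2 in labelled knockouts and 1 to 3 in controls. No scaling, filter or pseudocount turned the sign of a member's genotype value. Leaving out 1 library turned 12 such values, of Tnf, Tnfsf10, Tnfrsf1a, Tnfrsf21 and Tnfaip3, none of them called: the untreated Tnf value ran from -0.67 to 0.55. Scaling to library totals put the median gene at -0.11 (log2, IMQ over untreated) in labelled knockouts, against -0.01 with TMM. With 2 libraries a group, and 32 and 33 reads of Tnfsf15 in the labelled knockouts under IMQ, depth limits the size of that fold change.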
